A study of Homo sapiens with 71 samples.

Results

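The glycolytic enzymes studied here are the products of 10 human genes: HK1, HK2, GPI, PFKL, ALDOA, GAPDH, PGK1, PGAM1, ENO1 and LDHA. The genes were chosen by symbol and cover steps from glucose entry to lactate, and all 10 were found among the 31012 complete entries of the table. All 10 also passed the filter on low counts, which kept 6947 features. The cells were HepG2, a human hepatoma line that keeps many functions of liver cells. The dishes were seeded from 1 pool of cells, left for 72 hours, and then kept for 48 hours in medium of which 75% was either surface water passed through a 0.7 µm filter or purified water.

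Each of 16 sites, given here by its code in the labels, gave 4 libraries, except MIWI with 3, and purified water gave 8 control libraries (CTRL), 71 libraries in 17 groups. All groups shared the cell line, the concentrated medium and its supplements, and differed in the water added. The dishes are called biological replicates in the labels but came from 1 pool of cells, so a p-value covers the spread between dishes of a single exposure experiment. RNA was assayed with TempO-Seq, which ligates neighbouring probe pairs on a transcript and sequences the product. A count then depends on the probe, so levels were compared between groups for a gene and not between genes. Levels are given in CPM, counts scaled to a common library size after TMM, a normalization that balances the bulk of the features. Errors of CPM are SD over libraries. In such bulk samples fewer cells of a type and less RNA per cell cannot be told apart.

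Glycolysis splits glucose into pyruvate and gains ATP and NADH on the way. Hexokinases trap glucose in the cell, phosphofructokinase commits it to the pathway, aldolase splits the sugar, and the later enzymes harvest the energy before lactate dehydrogenase turns pyruvate into lactate and restores NAD+. Liver cells run the pathway in both directions, burning or making glucose with the body's needs, whereas hepatoma cells mostly burn it. Many of its genes are known targets of the hypoxia-inducible factors, which bind the core ACGTG or GCGTG, and of MYC, which binds the E-box CACGTG.

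The promoters of 3 members are shown because these genes differed in how their levels varied over the waters: PGAM1 had the largest F between sites of the members, PGK1 varied once deviant libraries were left out, and GAPDH varied mainly between dishes of a group. The windows are the 250 bases before the start in RefSeq on GRCh38.p14, 5′ to 3′ on the gene's strand, at chr10:97427568-97427817 for PGAM1, chrX:78103998-78104247 for PGK1 and chr12:6535014-6535263 for GAPDH, all on the plus strand. Capitals mark the hypoxia cores and the E-box on either strand.
PGAM1: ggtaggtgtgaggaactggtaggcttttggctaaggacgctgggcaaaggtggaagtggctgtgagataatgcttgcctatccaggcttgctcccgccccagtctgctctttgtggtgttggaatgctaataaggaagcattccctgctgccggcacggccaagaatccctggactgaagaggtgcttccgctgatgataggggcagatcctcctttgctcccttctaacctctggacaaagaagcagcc
PGK1: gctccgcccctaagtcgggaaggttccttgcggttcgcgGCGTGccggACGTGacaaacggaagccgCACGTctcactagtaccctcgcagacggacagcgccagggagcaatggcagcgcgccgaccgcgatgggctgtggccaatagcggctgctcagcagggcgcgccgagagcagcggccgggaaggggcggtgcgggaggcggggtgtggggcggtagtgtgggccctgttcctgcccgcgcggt
GAPDH: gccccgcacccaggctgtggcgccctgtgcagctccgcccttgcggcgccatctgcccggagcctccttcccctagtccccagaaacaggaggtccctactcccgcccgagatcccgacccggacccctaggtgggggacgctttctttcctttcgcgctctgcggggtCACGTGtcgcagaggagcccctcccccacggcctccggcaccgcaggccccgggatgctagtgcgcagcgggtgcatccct
PGAM1 held none of these letters in its window, PGK1 held ACGTG 2 times and GCGTG 1 time, and GAPDH held 1 CACGTG, which contains ACGTG on both strands. Windows were found for 10 of 10 members, and 9 held ACGTG or GCGTG in at least 1 window, although HK1 did so in 1 of its 7 windows. CACGTG was found for 4 members and the GC box GGGCGG for 9. Of 35114 promoters of the same length, 18.5% held ACGTG, 32.2% GCGTG, 6.35% CACGTG and 42.6% GGGCGG. These shares are of single promoters and single motifs, while the members had 1 to 7 windows each and were counted for either hypoxia core in any of them, so the counts and the shares cannot be compared directly. A match is a description of the sequence, and a missing match says only that the letters are not in this window.

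In GENCODE release 29 on GRCh38 the members lie on 9 chromosomes, with HK1 (chr10:69269984-69401884) and PGAM1 (chr10:97426160-97433441) both on the plus strand of chromosome 10. HK2 lies at chr2:74833981-74893359, GPI at chr19:34359480-34402413, PFKL at chr21:44300051-44327376 and ALDOA at chr16:30064164-30070457. GAPDH lies at chr12:6533927-6538374, PGK1 at chrX:77910739-78129296, ENO1 at chr1:8861000-8879250 and LDHA at chr11:18394388-18408425. ENO1 is the member on the minus strand. The annotation names 62 pseudogenes after GAPDH, 13 after PGAM1, 6 after LDHA, 4 after ENO1, 2 after ALDOA and 1 each after HK2 and PGK1. Where a probe matches such near-copies, the counting could have split or added reads, so the levels of these 7 genes are uncertain in that respect.

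Control libraries held 8183185 to 14519869 counts and site libraries 2912835 to 9893173, apart from VROH 2 with 8840 counts. The site libraries were therefore mostly shallower than the controls. Libraries VROH 2, CRMI 1 and SRMI 3 stood apart from the other dishes of their sites. VROH 2 held 1 count of HK2 and none of HK1, GPI or PFKL. CRMI 1 had HK2 at 21.5 CPM against 936 to 1092 CPM in the other CRMI dishes, and GAPDH at 480 CPM against 4018 to 9857 CPM. SRMI 3 had LDHA at 849 CPM against 3087 to 3519 CPM in the rest of its site, and PGK1 at 4209 CPM against 9428 to 10222 CPM. Other members were higher in these dishes. SRMI 3 had PGAM1 at 201 CPM against 97.7 to 119 CPM and ALDOA at 2232 CPM against 1039 to 1357 CPM. CRMI 1 had PGAM1 at 162 CPM against 96.5 to 128 CPM. Site differences are therefore given with all 71 libraries and with the 68 left without these 3, and orders and correlations of group means for the 68.

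The cells carried hepatocyte and hepatoma markers, of which 12 of 12 were tested, with a summed level of 145692 to 203248 CPM in the controls. The leukocyte marker PTPRC, the endothelial marker KDR and the squamous marker KRT6A were at 0 counts in all libraries. Of 6 immune markers the lysozyme gene LYZ carried nearly all of the sum, which was 1545 to 2167 CPM in the controls and 89.0 to 123 CPM without LYZ. The summed levels were 4.05 to 6.52 CPM for 6 fibroblast markers, 1.92 to 3.87 CPM for 4 endothelial markers and 0 to 0.0686 CPM for 4 squamous markers in the controls.

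The first comparison asked what the waters had in common. Averaged over the 16 sites, none of the 10 glycolytic genes differed from purified water by edgeR's quasi-likelihood test with Benjamini-Hochberg adjustment over all features, and none had an unadjusted p under 0.05, also by DESeq2. The log2 difference of the mean of sites from controls ran from -0.07 for GAPDH (SE 0.30) to 0.04 for HK1 (SE 0.13). For PGAM1 it was 0.01 (SE 0.09) and for LDHA -0.02 (SE 0.18). Of all features, 0.0576% were called in this comparison, and 0.174% without the 3 libraries that stood apart. The median over the members was -0.03, against -0.02 over all features tested.

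The second comparison asked whether the waters differed from each other. By the F test over the 16 sites 2 of 10 members differed, HK1 (F = 6.73, adjusted p = 1.15e-06) and PGAM1 (F = 8.83, adjusted p = 2.23e-08). In the same test 29.8% of all features were called, so 2 of 10 is no larger share than that of the table as a whole. With the 3 libraries left out 5 of 10 members were called, at a background of 49.8%. These were PGAM1 (F = 17.2), HK1 (F = 7.37), ALDOA (F = 4.76, adjusted p = 4.68e-05), PGK1 (F = 3.64, adjusted p = 0.000801) and HK2 (F = 2.92, adjusted p = 0.00542). PFKL had an adjusted p of 0.0616, and GPI, GAPDH, ENO1 and LDHA had adjusted p-values of 0.529 to 0.802.

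Single sites were then compared with the controls, which all these comparisons share. In the 160 tests of a member at a site, PGAM1 rose at LRMN and HK1 rose at CROH, and no other was called. Over the 16 site comparisons together 0.883% of tests on all features were called, 5.01% at LRMN and 2.14% at CROH. In the 68 libraries 11 tests were called, 8 higher and 3 lower, in HK1, PGK1 and PGAM1, at a background of 4.09% over all sites together. The 8 rises were at CROH, FRWI, GRNY, LRMN and RRMI, and the 3 falls at CRMI, MAWI and ORNY. The map of changes by gene and site shows these calls.

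**Figure D1:**
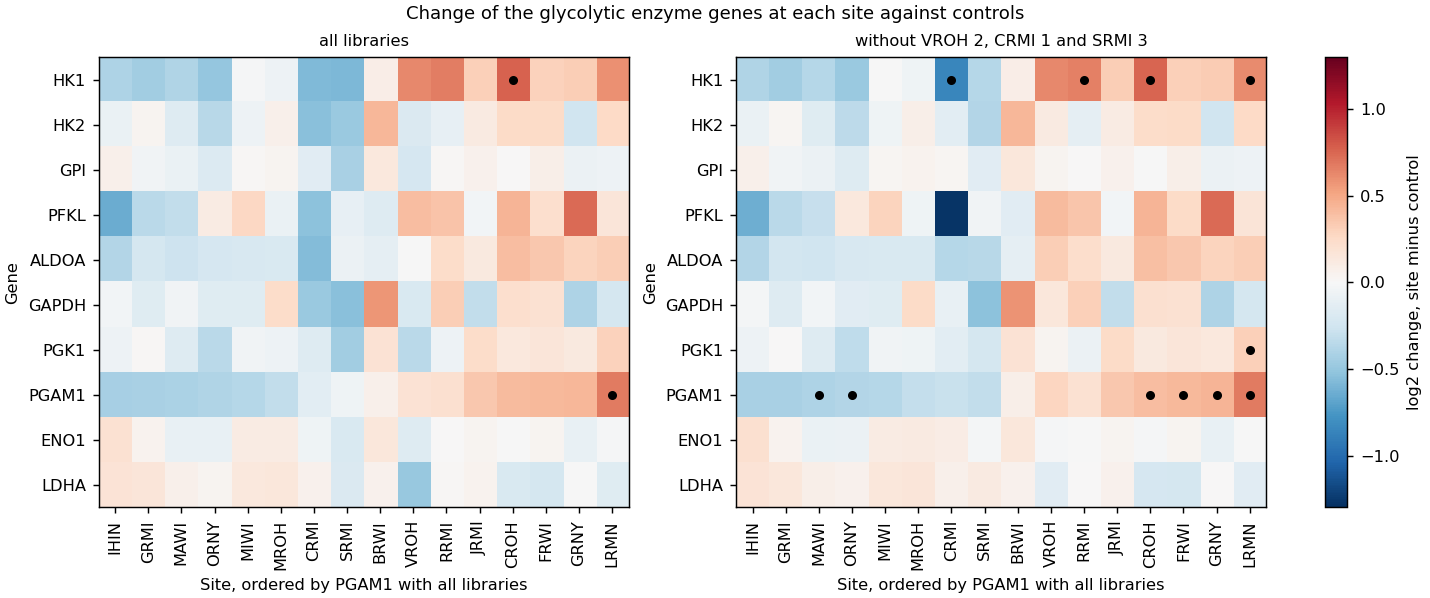
Log2 change of each gene (vertical axis) at each site (horizontal axis, ordered by the change of PGAM1) against the controls, with all 71 libraries on the left and without VROH 2, CRMI 1 and SRMI 3 on the right. Red is higher and blue lower than controls, and a black point marks an adjusted p under 0.05, of which there are 2 on the left and 11 on the right.

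The median change over the members also moved with the site. It was highest at CROH (0.24), FRWI (0.21) and LRMN (0.21) and lowest at CRMI (-0.33), SRMI (-0.31) and ORNY (-0.20) with all libraries. The median over all features stayed between -0.02 and 0.03 at these 6 sites. In the 68 libraries the members' median was -0.14 at CRMI and -0.27 at SRMI, and at VROH it turned from -0.18 to 0.13.

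The hexokinases phosphorylate glucose on entry. HK1, the form found in most tissues, was at 7.42 ± 1.52 CPM in the 8 controls, with a lowest value of 4.52, a median of 7.83 and a highest of 9.18 CPM. The 4 CROH libraries had 11.4, 12.4, 12.02 and 14.7 CPM, all above the controls. HK1 was higher at CROH by 0.77 on the log2 scale (SE 0.21, adjusted p = 0.0358), and by 0.75 (SE 0.19, adjusted p = 0.00811) without the 3 libraries. This call was also lost with no filter on low counts, with the replicate number as a block, and when any of the 4 CROH libraries or CTRL 2, CTRL 3 or CTRL 5 was left out. The highest adjusted p among these was 0.152. The call also depends on few reads, since these 4 libraries held 61, 68, 85 and 68 counts of HK1.

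HK1 was at 10.9, 11.3, 10.7 and 14.6 CPM at RRMI and at 12.3, 9.85, 9.30 and 13.2 CPM at LRMN. Both groups lay above every control library, the lowest LRMN dish only just. The log2 differences were 0.67 at RRMI (SE 0.21, adjusted p = 0.136) and 0.60 at LRMN (SE 0.21, adjusted p = 0.0869) with all libraries. Both passed without the 3 libraries, at 0.66 (adjusted p = 0.0387, background 2.86%) and 0.61 (adjusted p = 0.0217, background 17.5%). The VROH dishes other than VROH 2, at 9.75, 10.1 and 15.4 CPM, were also above every control, but HK1 was not called there.

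At CRMI the dishes other than CRMI 1 had HK1 at 4.10, 3.76 and 4.48 CPM, below every control, while CRMI 1 was at 6.98 CPM. The difference at CRMI was -0.57 (SE 0.24, adjusted p = 0.178) with all libraries and -0.85 (SE 0.27, adjusted p = 0.0412, background 8.01%) without CRMI 1, VROH 2 and SRMI 3. Those 3 dishes held 13, 13 and 16 counts of HK1, and their totals of 3184226 to 3837139 counts were below those of all controls.

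Over the groups without the 3 libraries HK1 ran from 4.11 ± 0.36 CPM at CRMI to 12.6 ± 1.41 CPM at CROH. CRMI was followed by ORNY (5.19), GRMI (5.38), MAWI (5.51), IHIN (5.57), SRMI (5.73), MROH (6.95) and MIWI (7.27). Above the controls came BRWI (7.83), FRWI (8.94), GRNY (9.22), JRMI (9.24), LRMN (11.2), VROH (11.7), RRMI (11.9) and CROH. The ranges of neighbours in this order overlapped at every step, so neighbours in the order were not told apart.

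**Figure D2:**
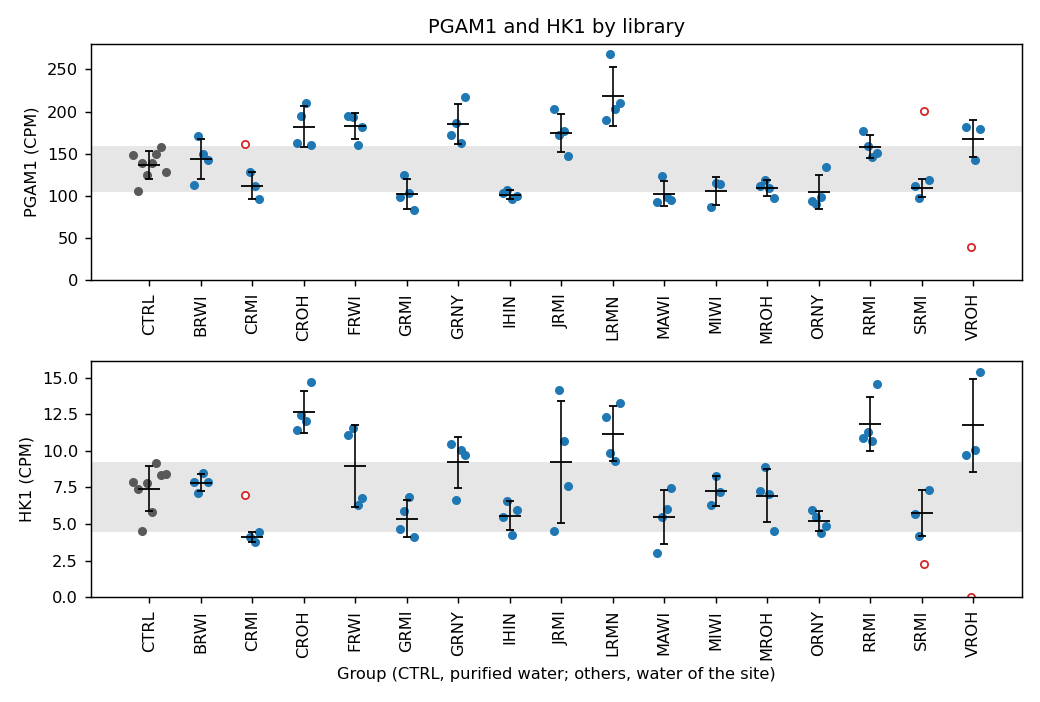
CPM of PGAM1 and HK1 in every library (points) by group, with the mean and SD of each group as bars; red open points are VROH 2, CRMI 1 and SRMI 3, left out of the bars, and the grey band is the range of the controls. PGAM1 at LRMN, between 190 and 269 CPM, and HK1 at CROH, between 11.4 and 14.7 CPM, lie above the band.

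HK2, the inducible hexokinase that many tumours use, was at 1106 ± 161 CPM in the controls (768 to 1258 CPM). At BRWI it was at 1603, 1655, 1349 and 1348 CPM, above all controls. The log2 difference at BRWI was 0.43 (SE 0.36) with all libraries and 0.43 (SE 0.16, adjusted p = 0.189) without the 3, which missed the threshold. CROH, at 1260 to 1349 CPM, also lay just above the highest control, with a log2 difference of 0.25 (SE 0.36, adjusted p = 0.798). The lowest group without the 3 libraries was SRMI at 846 ± 45.8 CPM, a log2 difference of -0.38 (SE 0.18), against -0.48 (SE 0.37) with all libraries.

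GPI turns glucose 6-phosphate into fructose 6-phosphate. Its group means without VROH, CRMI and SRMI ran from 545 CPM at ORNY to 680 CPM at BRWI around a control mean of 617 ± 69.3 CPM (530 to 729 CPM). Site differences without the 3 libraries ran from -0.16 at ORNY (SE 0.10) to 0.14 at BRWI (SE 0.10), and the smallest adjusted p was 0.407. With all libraries they ran from -0.42 at SRMI (SE 0.24) to 0.14 at BRWI (SE 0.23), with a smallest adjusted p of 0.446. All BRWI dishes, at 717, 628, 675 and 701 CPM, lay within the range of the controls.

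PFKL is the liver subunit of phosphofructokinase, which makes fructose 1,6-bisphosphate and commits the sugar to glycolysis. It was the member with the fewest reads, 3 to 64 counts a library with a median of 22.5, against 11 to 113 for HK1. The controls had 3.81 ± 1.29 CPM (2.46 to 6.52 CPM). The GRNY dishes had 6.43, 6.08, 5.60 and 7.34 CPM, and overlapped with the highest control. The largest site differences without the 3 libraries were 0.73 at GRNY (SE 0.31, adjusted p = 0.115) and -1.27 at CRMI (SE 0.51, adjusted p = 0.107), where the 3 dishes held 3, 10 and 3 counts. With all libraries the extremes were 0.73 at GRNY (SE 0.32, adjusted p = 0.294) and -0.64 at IHIN (SE 0.37).

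PFKL also moved with the depth of the library. Within groups, over the 68 libraries, its level correlated with the log of the library total at Pearson's r = 0.65 and Spearman's rho = 0.63. Both had a permutation p of 1e-05, the smallest that 100000 permutations can give, and an adjusted p of 0.0001 over the 10 members. Without the 2 libraries farthest from the median total r was 0.61. For HK1 r was 0.31 (permutation p = 0.0257, adjusted p = 0.0643) and rho 0.30 (adjusted p = 0.108). In the other direction HK2 had r = -0.31 (adjusted p = 0.0642) and rho = -0.36 (adjusted p = 0.0282), and PGK1 r = -0.27 (adjusted p = 0.0643) and rho = -0.33 (adjusted p = 0.0464). PGAM1 showed none of this, with r = 0.01 and rho = 0.02. The part of depth in the site differences of PFKL, HK1, HK2 and PGK1 was not tested.

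**Figure D3:**
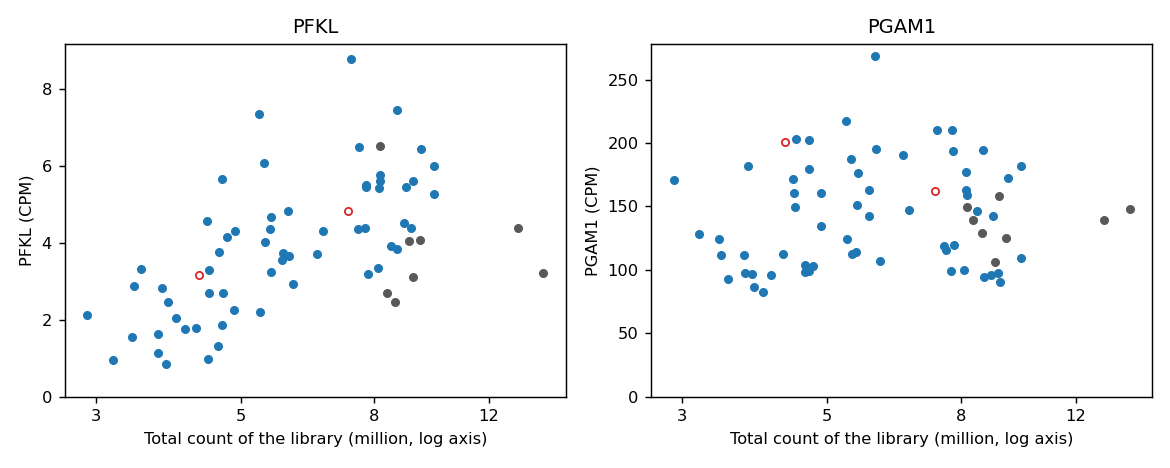
CPM of PFKL and PGAM1 against the library total (counts, log axis) for 70 libraries, without VROH 2; grey points are controls, blue points site libraries and red open points CRMI 1 and SRMI 3. PFKL is low in the shallow libraries, while PGAM1 shows no trend with depth.

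ALDOA splits fructose 1,6-bisphosphate. It was at 1530 ± 208 CPM in the controls (1305 to 1814 CPM). The CROH dishes had 1685, 1825, 2725 and 1874 CPM, of which all but the first lay above the highest control. The IHIN dishes had 1106, 1195, 1088 and 1297 CPM, all below the lowest control, the last by under 10 CPM. The CRMI dishes, at 584 CPM in CRMI 1 and 1119 to 1280 CPM in the others, also lay below every control. With all libraries the log2 differences were 0.41 at CROH (SE 0.27, adjusted p = 0.476), -0.39 at IHIN (SE 0.28, adjusted p = 0.733) and -0.56 at CRMI (SE 0.28, adjusted p = 0.260). Without the 3 libraries they were 0.39 at CROH (SE 0.16, adjusted p = 0.0931), -0.38 at IHIN (SE 0.16, adjusted p = 0.205) and -0.37 at CRMI (SE 0.18, adjusted p = 0.198), so no single site was called while the F test between sites was. With the site and the controls alone in the fit CROH and IHIN passed, at 0.39 (adjusted p = 0.0483) and -0.38 (adjusted p = 0.0442). In these fits 997 of 6704 features were called at CROH and 326 of 6714 at IHIN.

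GAPDH oxidizes glyceraldehyde 3-phosphate and is widely used as a reference transcript. Its level was 7382 ± 2106 CPM in the controls, from 3898 to 10636 CPM, a coefficient of variation of 28.5%. Among the members only PFKL varied more between control dishes (33.9%), and PGK1 varied least (10.3%). At GRNY the dishes had 6718, 1496, 1641 and 12520 CPM, a spread within 1 site that exceeded the range of the controls on both sides. At BRWI they had 10641, 13811, 9226 and 10425 CPM, a log2 difference of 0.58 (SE 0.40, adjusted p = 0.547) without the 3 libraries and 0.58 (SE 0.48, adjusted p = 0.905) with all. GAPDH was called at no site with all 71 or with 68 libraries.

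PGK1 makes the first ATP of the pathway. The controls had 11568 ± 1188 CPM, with a median of 11908 and CTRL 5 apart from the others at 8894 CPM. The LRMN dishes had 16089, 11620, 13029 and 16365 CPM. The second of these lay within the controls' range and the others above it. The log2 difference of PGK1 at LRMN was 0.30 (SE 0.31, adjusted p = 0.619) with all libraries and 0.31 (SE 0.11, adjusted p = 0.0416) without the 3, where it was called. The lowest site was ORNY with 8100, 9459, 8383 and 10439 CPM, a log2 difference of -0.33 (SE 0.11, adjusted p = 0.0788) without the 3.

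**Figure D4:**
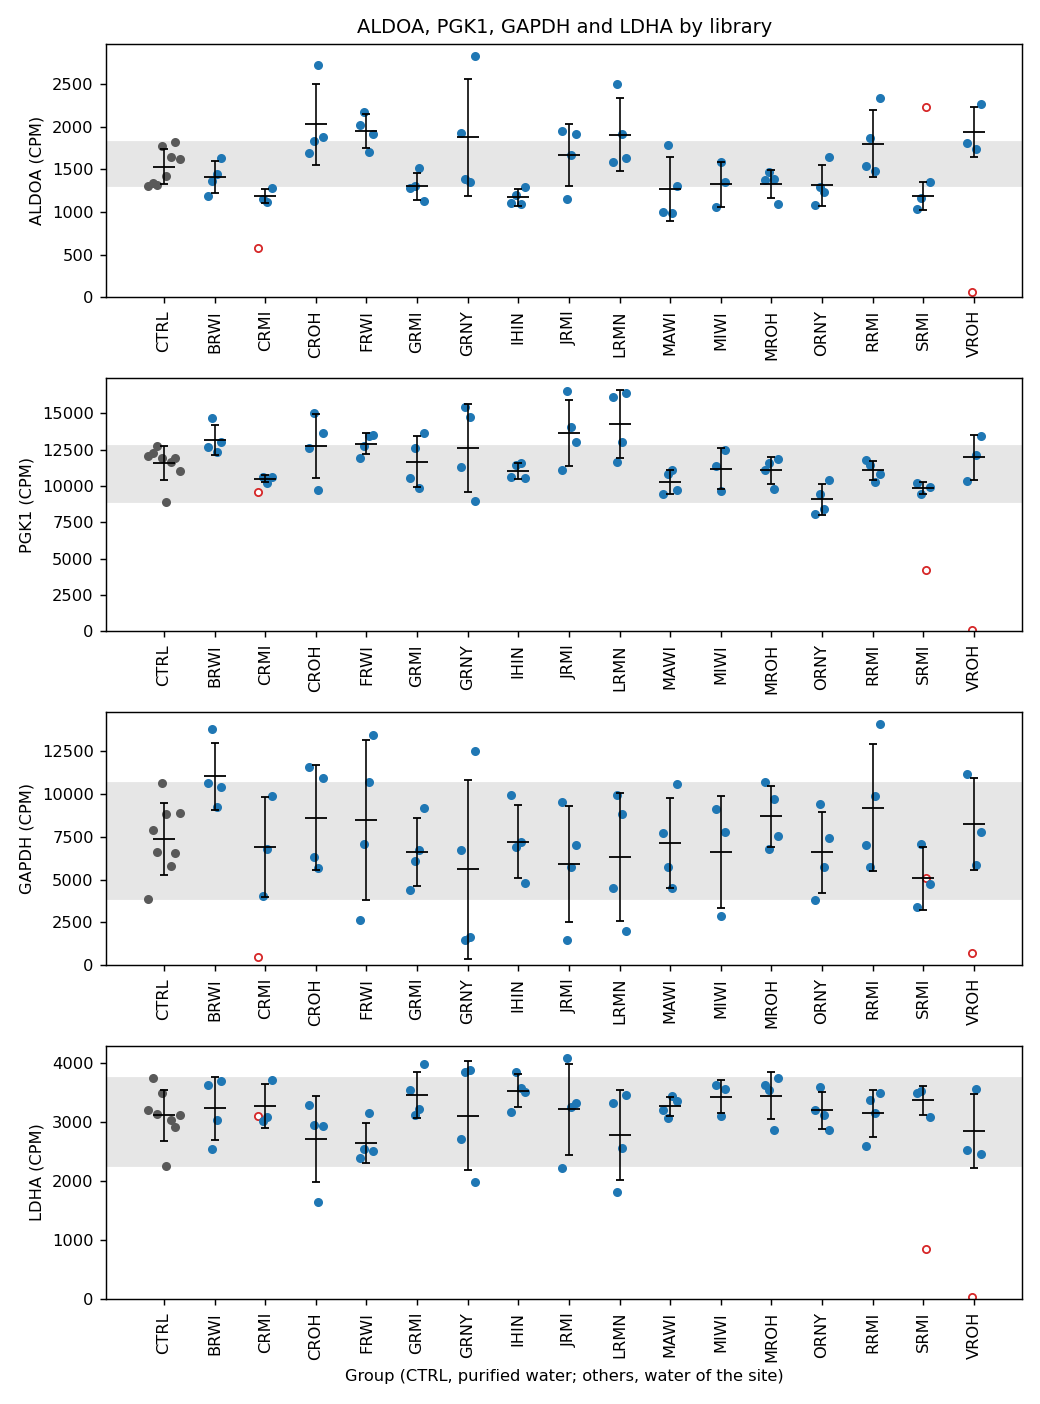
CPM of ALDOA, PGK1, GAPDH and LDHA in every library by group, drawn with the mean and SD of each group, the grey control range and red open points for VROH 2, CRMI 1 and SRMI 3, which are left out of the bars. The dishes of GAPDH spread over nearly the whole axis within single sites, such as 1496 to 12520 CPM at GRNY, whereas PGK1 at LRMN reaches 16365 CPM above a highest control of 12742 CPM.

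PGAM1 shifts the phosphate of 3-phosphoglycerate. It was at 137 ± 16.5 CPM in the controls, with a lowest value of 106, a median of 139 and a highest of 159 CPM. The LRMN libraries had 190, 269, 203 and 210 CPM, all above every control. PGAM1 rose at LRMN by 0.67 on the log2 scale (SE 0.15, adjusted p = 0.00329), and by 0.68 (SE 0.11, adjusted p = 1.48e-05) without the 3 libraries. Without LRMN 2 the difference was 0.56 and the call was lost (adjusted p = 0.0590).

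At 3 more sites every dish of PGAM1 was above every control. The values were 163, 195, 211 and 161 CPM at CROH, 194, 194, 161 and 182 CPM at FRWI, and 172, 187, 163 and 217 CPM at GRNY. Their log2 differences were 0.41, 0.42 and 0.43 (SE 0.15 each) with all libraries and were not called (adjusted p = 0.141, 0.306 and 0.215). Without the 3 libraries, all from other sites, they were 0.40, 0.42 and 0.44 (SE 0.11 each), with adjusted p-values of 0.0158, 0.0331 and 0.0126. The backgrounds in these comparisons were 10.3% at CROH, 2.18% at FRWI and 9.17% at GRNY.

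PGAM1 was lower at another set of sites. The MAWI dishes had 92.7, 124, 99.2 and 95.8 CPM and the ORNY dishes 94.3, 90.6, 99.0 and 134 CPM, in each case with 3 dishes below the lowest control and 1 within the range. Without the 3 libraries PGAM1 fell by 0.40 on the log2 scale at MAWI (SE 0.12, adjusted p = 0.0302, background 4.71%) and by 0.38 at ORNY (SE 0.12, adjusted p = 0.0477, background 4.09%). IHIN, with the lowest mean of 102 ± 4.87 CPM, had a log2 difference of -0.43 (SE 0.12) and missed the threshold (adjusted p = 0.0538), as did GRMI at -0.43 (adjusted p = 0.0709). With all libraries the differences were -0.41 at MAWI, -0.39 at ORNY, -0.43 at IHIN and -0.42 at GRMI (SE 0.16 each), and none was called. In the fit of IHIN and the controls alone PGAM1 passed at -0.42 (adjusted p = 0.0241), where 326 of 6714 features were called.

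The order of PGAM1 over the groups without the 3 libraries began with IHIN (102), GRMI (102), MAWI (103), ORNY (105), MIWI (106), SRMI (109), MROH (109.7) and CRMI (112 CPM). After the controls it went on with BRWI (144), RRMI (158), VROH (168), JRMI (175), CROH (182), FRWI (183), GRNY (185) and LRMN (218 CPM). Neighbours overlapped at every step here too, but the 4 highest sites did not overlap with the 8 control libraries. With all libraries the means were 132 CPM at SRMI, 125 CPM at CRMI and 136 CPM at VROH.

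ENO1 makes phosphoenolpyruvate. Its controls had 446 ± 72.9 CPM (339 to 526.5 CPM). Its site differences ran from -0.09 at GRNY (SE 0.12) to 0.20 at IHIN (SE 0.12) without the 3 libraries, with a smallest adjusted p of 0.377. With all libraries they ran from -0.20 at SRMI (SE 0.16) to 0.20 at IHIN (SE 0.16), with a smallest adjusted p of 0.681. The IHIN dishes had 457, 533, 584 and 479 CPM, overlapping with the controls.

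LDHA makes lactate. Its controls had 3114 ± 437 CPM (2256 to 3753 CPM). In the 68 libraries its lowest site difference was at FRWI (-0.23, SE 0.16), where PGAM1 was higher than in the controls. Its highest was at IHIN (0.18, SE 0.16), the site with the lowest mean of PGAM1. The FRWI dishes had 2392, 2548, 3153 and 2506 CPM and the IHIN dishes 3171, 3853, 3581 and 3506 CPM. Every FRWI dish and all but 1 IHIN dish lay within the range of the controls. With all libraries the lowest was VROH (-0.49, SE 0.31) and the highest again IHIN (0.18, SE 0.30). No site was called for LDHA, and the smallest adjusted p was 0.392 without the 3 libraries and 0.750 with all.

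The group means of the members were then compared with each other. Over the 17 group means of log2 CPM without the 3 libraries, Pearson's r was 0.93 between PGAM1 and ALDOA, 0.92 between HK1 and ALDOA, and 0.85 between HK1 and PGAM1. LDHA had r = -0.90 with ALDOA and -0.86 with PGAM1. GPI and ENO1 had r = 0.76 with each other and 0.15 and -0.32 with PGAM1. GAPDH had r = 0.01 with ALDOA and -0.12 with PGAM1. These values are a description of 17 points that share libraries, depth and the scaling to a common total. PFKL, GPI, GAPDH, ENO1 and LDHA were not called between sites, so their r also holds the spread between dishes. LRMN 2 (2503 and 1808 CPM), CROH 3 (2725 and 1643) and GRNY 4 (2828 and 1983) had the highest ALDOA and lowest LDHA of their sites. The same held in the 68 libraries for JRMI 1, MAWI 2, MIWI 2, ORNY 4, SRMI 4 and VROH 4. RRMI 4 (2336 and 3488 CPM), BRWI 4 (1637 and 3696) and CRMI 4 (1280 and 3704) had the highest of both at their sites. At FRWI, GRMI, IHIN and MROH the dish with the most ALDOA had neither the lowest nor the highest LDHA. PGK1 had r = 0.87 with PKM, the pyruvate kinase gene, and 0.79 with PGAM1. PFKL had r = 0.78 with HK1 but 0.28 with PGK1. The matrix of correlations shows all pairs.

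**Figure D5:**
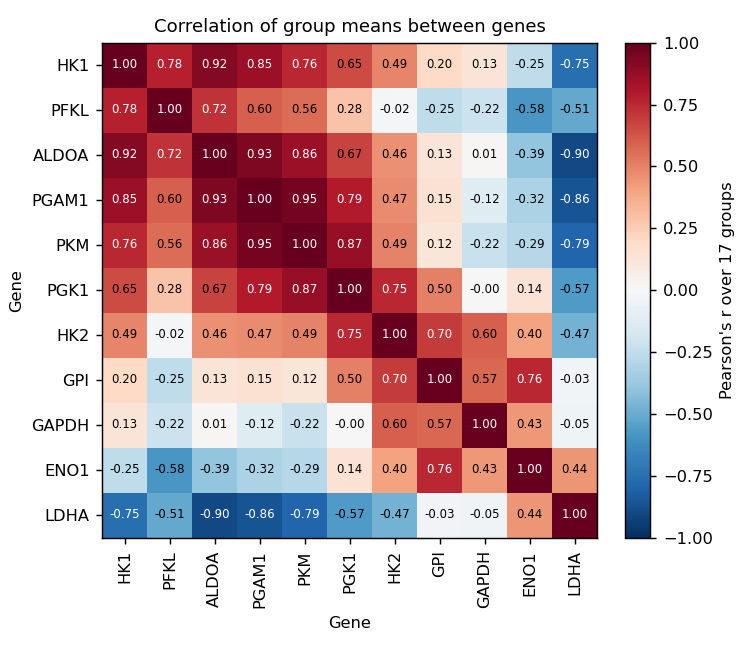
Pearson's r between pairs of genes over the 17 group means of log2 CPM, without VROH 2, CRMI 1 and SRMI 3; both axes list the 10 members and PKM, and red is positive and blue negative. PGAM1 and PKM have r = 0.95, and ALDOA and LDHA r = -0.90.

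The features most like PGAM1 in this measure were ANPEP (r = 0.99), a membrane aminopeptidase, PPIA (r = 0.99), the prolyl isomerase cyclophilin A, and ARFGEF2 (r = 0.99), an exchange factor of ARF proteins. Of 4206 features with a mean of at least 10 CPM, 10.7% had an r over 0.9 with PGAM1 and 9.53% an r under -0.9. The features most like HK1 were CREBRF (r = 0.96), FSTL3 (r = 0.96) and BCL6 (r = 0.95), a transcriptional repressor. For HK1 2.07% had an r over 0.9 and 4.14% an r under -0.9.

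Other genes of the pathway were described from lists of isoenzymes, flux control, pyruvate use, gluconeogenesis, the pentose phosphate route, glycogen and hexose entry, transcriptional regulators and hypoxia markers. Of their genes 64 were tested and none was called at the mean of sites. Between sites 21 of 64 were called, or 32.8% against 29.8% of all features, and at single sites 10 of 1024 tests were called, 7 higher and 3 lower, or 0.977% against 0.883%. Without the 3 libraries these counts were 36 of 64 between sites (56.2% against 49.8%) and 63 of 1024 at single sites (6.15% against 4.09%). The sugar and lactate transporters and the later pentose phosphate enzymes were not analysed here.

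Of 21 isoenzyme symbols 9 were tested, and ALDOC and ENO3 were called between sites. ENO3, the muscle enolase, was at 21.2 ± 2.35 CPM in the controls and 36.2 ± 6.48 CPM at CROH (29.2 to 44.8 CPM), all above the controls. ENO3 rose at CROH by 0.78 (SE 0.22, adjusted p = 0.0384), and by 0.76 (SE 0.17, adjusted p = 0.00284) without the 3 libraries. ENO1, the enolase found in most tissues, had a log2 difference of -0.01 (SE 0.16) at the same site. PKM, the pyruvate kinase of the last step, was at 1267 ± 131 CPM in the controls and 1861 ± 280 CPM at LRMN (1557 to 2232 CPM), all above the controls. Its difference at LRMN was 0.55 (SE 0.23, adjusted p = 0.151) with all libraries and 0.56 (SE 0.09, adjusted p = 1.36e-05) without the 3. Little was counted of some related enzymes: FBP1 had 18 counts and LDHB 90 over the 71 libraries, too few to test.

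Among 9 tested genes of flux control, PFKFB3, PDK1 and PDK3 were called between sites. PFKFB3 makes fructose 2,6-bisphosphate, the activator of phosphofructokinase, and was at 57.8 ± 7.98 CPM in the controls and 103 ± 30.8 CPM at CROH (80.0 to 148 CPM). It rose at CROH by 0.84 (SE 0.21, adjusted p = 0.0172), and by 0.82 (SE 0.15, adjusted p = 0.000301) without the 3 libraries. All CROH dishes were above the controls' highest value of 71.6 CPM. Without the 3 libraries PDK1 was called lower at LRMN (-0.62, adjusted p = 0.0105) and GRNY (-0.55, adjusted p = 0.0335). PDK1 was called higher at MAWI (0.60, adjusted p = 0.0215) and SRMI (0.72, adjusted p = 0.0191). In the same setting PFKFB3 was also called higher at GRNY (0.61), JRMI (0.57) and LRMN (0.62). At LRMN PDK3 was called higher (0.44) and GCKR lower (-0.60). Of 8 genes that lead pyruvate into mitochondria, PDHX, MPC2 and PDHA1 were called between sites. PDHX, a part of the pyruvate dehydrogenase complex, was at 114 ± 11.8 CPM in the controls and 153 ± 6.89 CPM at LRMN, and rose there by 0.42 (SE 0.12, adjusted p = 0.0217), and by 0.43 (SE 0.09, adjusted p = 0.000409) without the 3 libraries.

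Of 10 hypoxia markers ANKRD37, CA9, KDM3A and P4HA1 were called between sites. CA9, a carbonic anhydrase of the cell surface, was at 123 ± 20.7 CPM in the controls (104 to 167 CPM) and 208 ± 54.8 CPM at LRMN (157 to 284 CPM). The ranges overlapped in the lowest LRMN dish. CA9 rose at LRMN by 0.76 (SE 0.21, adjusted p = 0.0232), and no other hypoxia marker was called there with all libraries. In the 68 libraries CA9 (0.77, adjusted p = 0.00047), NDRG1 (0.36, adjusted p = 0.0169) and P4HA1 (0.79, adjusted p = 0.0331) were called higher at LRMN. Higher calls were also made at CROH for CA9 (0.51, adjusted p = 0.0325) and NDRG1 (0.38, adjusted p = 0.0188), and at GRNY for CA9 (0.78, adjusted p = 0.00291) and NDRG1 (0.44, adjusted p = 0.0107). KDM3A was lower at GRNY (-1.79, adjusted p = 0.0335). At ORNY 4 of the 10 were called, all lower. ANKRD37 was at -0.69 (adjusted p = 0.0111) and CA9 at -0.64 (adjusted p = 0.0181). NDRG1 was at -0.41 (adjusted p = 0.0238) and P4HA1 at -1.02 (adjusted p = 0.0330). MAWI and SRMI also had lower calls, for ANKRD37 (-0.70 and -0.74) and NDRG1 (-0.48 and -0.49), as did CRMI for CA9 (-0.62). CA9 was called higher at FRWI (0.57) and JRMI (0.58). Over all features 4.09% were called at ORNY, 17.5% at LRMN, 10.3% at CROH, 9.17% at GRNY and 4.71% at MAWI. At CRMI 8.01% were called and at FRWI 2.18%. The median of the hypoxia list was 0.17 at LRMN and 0.15 at CROH, beside -0.01 and 0.01 over all features, which TMM holds near 0.

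The other lists had fewer calls at the sites where members were called. Of 11 genes of glycogen and hexose entry 5 were called between sites, among them KHK, PGM1 and PYGL, of 10 regulators EPAS1, FOXK2 and MLX were called, and of 4 tested genes of gluconeogenesis PCK2 was. None of these lists had a call at LRMN or CROH with all libraries, and the 4 tested pentose phosphate genes had none between sites. Without the 3 libraries the regulator MYC was called higher at CRMI (0.41, adjusted p = 0.000438) and MAWI (0.27, adjusted p = 0.00904). HK1 was called lower at CRMI in that setting, and PGAM1 lower at MAWI. MLXIPL was called lower at CRMI (-0.998, adjusted p = 0.0118) and PPARGC1A lower at MAWI (-0.35, adjusted p = 0.0301). EPAS1 (0.45) and FOXK2 (0.44) were called higher at CROH, and MLX (0.78) at GRNY. List medians at LRMN were 0.18 for isoenzymes, 0.15 for flux control, 0.20 for pyruvate use, 0.11 for gluconeogenesis, 0.03 for the pentose phosphate route, -0.22 for glycogen and hexose entry and 0.11 for regulators. At CROH they were 0.10, -0.10, 0.07, 0.15, 0.01, -0.10 and 0.16 in the same order.

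Markers of other cells were read beside the rises of PGAM1 and HK1. The summed immune markers were 2823 to 3925 CPM at LRMN and 2550 to 2880 CPM at CROH, above the controls, and LYZ, at 3326 ± 497 CPM at LRMN against 1651 ± 204 CPM in the controls, made up most of it. LYZ rose at LRMN by 1.01 (SE 0.27, adjusted p = 0.0157), CEBPA of the hepatocyte list fell by 0.61 (adjusted p = 0.0339) and CDH5 of the endothelial list fell by 2.01 (adjusted p = 0.0235) on the log2 scale. In the 68 libraries LYZ was called at 10 sites, higher at LRMN (1.02, adjusted p = 1.52e-06), CROH (0.64), FRWI (0.54), GRNY (0.66), JRMI (0.54) and RRMI (0.52), and lower at CRMI (-0.97), IHIN (-0.73), MAWI (-0.64) and ORNY (-0.57). The macrophage marker CD68 fell at LRMN by 0.56 (adjusted p = 0.0191) in these libraries, and CDH5 by 2.00 (adjusted p = 0.00666). CDH5 was at a low level, since all 4 endothelial markers summed to 1.92 to 3.87 CPM in the controls. Their sum at LRMN, 1.13 to 3.55 CPM, overlapped with that range. Of the 12 hepatocyte and hepatoma markers the sum was 185171 to 213032 CPM at LRMN, overlapping with the controls. In the 68 libraries 4 of the 12 were called at LRMN: the apolipoproteins APOA1 (0.32, adjusted p = 0.0028) and APOB (0.50, adjusted p = 0.0158) and the fibrinogen chain FGB (0.29, adjusted p = 0.0205) were higher, and CEBPA was lower (-0.61, adjusted p = 0.00318). At CROH APOB was higher (0.52, adjusted p = 0.0204) and the fibrinogen chain FGA lower (-0.71, adjusted p = 0.0188). PTPRC, the marker that defines leukocytes, was at 0 at both sites. The part of these markers in the changes of PGAM1, HK1 and PGK1 was not tested.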

How the data were processed

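Expression was measured with TempO-Seq in 71 HepG2 libraries of 17 groups, taken from the site in their labels. The authors deposited expected counts, that is estimated numbers of reads, and named the table as normalized. Per the submitters' processing notes, Salmon and GRCh38 were used. For the Salmon version, the summing of probes and any normalization no source used here gives details. The step of 1 read was 0.993 to 1.00 in each library, and 93.2% of low values (under 20; median over libraries, lowest 91.1%) fell within 0.02 of whole steps, so no scaling between libraries was visible and the values served as counts. The table was held up to the entry before RAI14 in alphabetical order, and later symbols were not analysed here. Library numbers of MIWI and GRMI are those of the columns. The growth protocol describes 16 control dishes, and 8 control libraries were analysed.

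Rounded counts entered a single edgeR 4.0.16 model (R 4.3.3) with a mean for each group, TMM scaling and the quasi-likelihood test. The filter (filterByExpr, minimum count 10) left 6947 of the 12425 features that had counts. There were 54 residual degrees of freedom, and the common biological coefficient of variation was 0.257. The contrasts were the mean of 16 sites against controls, each site against controls, and an F test of equality among sites. P-values were adjusted by Benjamini-Hochberg across every tested feature of a contrast and called under 0.05. Standard errors are the log2 change over the square root of F. Depth ran from 2912835 counts upward, VROH 2 aside. Alternatives were DESeq2 1.42.0, RLE scaling, no filter, the replicate number as a block, a site with the controls alone, and fits that left out libraries. The procedure was tested on simulated data. Correlations used log2 of CPM + 1, and those with depth used deviations from group means.

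The members, the lists and the 3 libraries left out were chosen with earlier results of these data known. All members were named whatever their values. From the lists, genes called in a comparison with a called member were named, up to 4 a list by smallest p. PKM, NDRG1, P4HA1, FBP1, LDHB, CD68, APOA1, APOB, FGB, FGA, MYC, MLXIPL, PPARGC1A and GCKR were named after their values were seen. One further list gene that met this rule is not reported here. For likeness the 3 features of highest r were named. Positions are from GENCODE release 29 and promoters from RefSeq.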

Additional observations from a re-analysis of the deposited data

Results flagged for a closer look

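In groups of 4 to 10 libraries 1 dish stood far from the rest of its group in 10 of 160 sets of a gene and a group, which is near the 1 in 20 that chance gives. Of these 10, 4 were in libraries already set apart: HK2 at 21.5 CPM in CRMI 1 and 19.6 CPM in VROH 2, and PGK1 at 4209 CPM and LDHA at 849 CPM in SRMI 3.

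The other 6 were in libraries kept throughout. HK1 was at 14.6 CPM in RRMI 4 against 10.7 to 11.3 CPM in the other dishes of that site. GPI was at 482 CPM in CROH 3 against 651 to 683 CPM, and at 435 CPM in LRMN 2 against 630 to 649 CPM. LRMN 2 is also the dish with the most PGAM1 at LRMN, and without it that call was lost. PFKL was at 8.77 CPM in CROH 3 against 3.66 to 4.31 CPM. PGK1 was at 8894 CPM in CTRL 5 against 11020 to 12742 CPM in the other controls. LDHA was at 3704 CPM in CRMI 4 against 3018 to 3101 CPM.

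HK1 and PGAM1 differed between sites by the F test over the 16 sites, with F = 6.73 and F = 8.83.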

How the results depend on the processing

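At the mean of sites no member was called under any alternative run. Between sites 2 members were called, 4 without VROH 2 and 5 without VROH 2, CRMI 1 and SRMI 3. When each library was left out in turn 2 to 4 were called, with 4 for VROH 2 alone. Calls over all features rose as well. They were 2073 of 6947 (29.8%) with all libraries, 2624 of 6943 without VROH 2 and 3446 of 6916 (49.8%) without the 3. At single sites 2 tests were called, 1 with no filter on low counts, 1 with the replicate block, 11 without the 3 libraries, 10 with a site and the controls alone, and 1 to 2 when single libraries were left out (1 without any of the 4 CROH libraries, CTRL 2, CTRL 3, CTRL 5 or LRMN 2). Among the other genes of the pathway 10 of 1024 tests were called (0.977%), and 63 (6.15%) without the 3 libraries. PGAM1 at LRMN kept a log2 change of 0.56 to 0.75 and HK1 at CROH one of 0.68 to 0.88 under all alternatives run. The call of HK1 was lost with no filter and with the replicate block, and the cause was not tested. Deviations from group means correlated at a mean r of 0.02 over 480 pairs with the same replicate number. Over 1686 pairs with other numbers the mean r was -0.0049. Whether some dishes of equal number were paired was not tested. Depth limits HK1 and PFKL most, with medians of 52.0 and 22.5 counts a library.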
